A study of Mus musculus with 6 samples.

Results

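Mest and a set of other imprinted growth genes were examined in 6 mammary tumours of the PyMT mouse. The 10 listed genes were chosen by name, with earlier results of these arrays known, and the set is named for Mest. The differences between the groups are therefore counted among the values that chose the members and are given as a description, with no test of the members as a set. Single members entered only the test run over all genes. Of the 45281 probes on the array, 20 carried the symbol of a member, and they covered 9 of the 10 genes. H19 had no named probe. Expression was compared between 3 PyMT/ETP tumour samples, which carried an endotrophin transgene beside PyMT, and 3 PyMT control samples, which carried PyMT without it. All 6 tumours came from female mice of the FVB strain aged 12 weeks and all carried PyMT, the polyomavirus middle T antigen under the mouse mammary tumour virus promoter. Endotrophin (ETP, also given as C5 in the labels) is a cleavage product of the collagen VI alpha 3 chain. The promoter of the endotrophin transgene is not given in the sources used here, and 0 named probes were assigned to Col6a3. Nothing states that each tumour came from a separate mouse, so the spread described is that between these samples and may be technical.

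Imprinted genes are expressed mainly from the allele of a single parent, marked by DNA methylation that is set in the germ line. Many of them act on prenatal growth. Paternally expressed members such as Igf2, Mest, Peg3 and Dlk1 are known mostly as promoters of growth or regulators of progenitor cells, and maternally expressed members such as Cdkn1c, Grb10 and H19 mostly as restraints on it. In adult tissue many of these genes are expressed at low levels, and Mest and Dlk1 are studied in adipose tissue, where Mest marks fat expansion and Dlk1 holds back adipocyte differentiation.

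The Mest gene lies on mouse chromosome 6 and has several transcription starts. The bases before its starts are shown because Mest carried the largest difference among the members and because CpG methylation at the start of this gene marks its silent maternal allele. Both windows come from RefSeq (GRCm38.p6, forward strand) and hold the 250 bases before a start, with CpG dinucleotides in capitals. The first lies at chr6:30733256-30733505 and the second at chr6:30737800-30738049.
Mest start 1: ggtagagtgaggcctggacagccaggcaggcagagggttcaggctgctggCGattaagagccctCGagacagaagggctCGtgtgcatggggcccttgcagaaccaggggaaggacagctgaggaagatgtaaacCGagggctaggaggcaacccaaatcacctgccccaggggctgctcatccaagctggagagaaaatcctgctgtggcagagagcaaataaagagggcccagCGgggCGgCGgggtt
Mest start 2: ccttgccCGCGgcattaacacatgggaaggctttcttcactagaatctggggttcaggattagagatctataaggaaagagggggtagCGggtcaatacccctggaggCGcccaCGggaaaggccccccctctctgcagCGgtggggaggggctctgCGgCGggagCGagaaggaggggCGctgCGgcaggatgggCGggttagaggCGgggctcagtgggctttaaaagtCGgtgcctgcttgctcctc
The upstream window held 7 CpG dinucleotides and the downstream window 14, against a median of 6 over all 32851 windows of the table. As many as 14 were found in 29.4% of all windows. The letters TGCCGC, the core bound by the imprint-maintaining protein ZFP57, were searched on both strands. They occurred 2 times in the downstream window and 0 times in the upstream one, and 8.68% of all windows held them. A further Mest start in the table lay 3 bases from the second and gave the same counts. Over the 13 windows of the 7 members in the table, CpG counts ran from 1, before an Igf2 start, to 40, before a Grb10 start, and 10 of the 13 exceeded the median of all windows. The hexamer was also found before the Plagl1 start, which made 3 of 13 windows, of which the pair before Mest overlap.

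The Mest gene also holds the hairpin of miR-335, whose mature strands are shown because they are made from the same locus. No probe was named for this miRNA, so it was not measured here. Bases 2 to 8, the seed, are in capitals.
mmu-miR-335-5p: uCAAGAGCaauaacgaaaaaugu
mmu-miR-335-3p: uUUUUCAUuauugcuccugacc
The 5p strand lies at chr6:30741314-30741336 and the 3p strand at chr6:30741354-30741375 (RefSeq, GRCm38.p6, forward strand).

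Values are the authors' deposited normalized intensities on a linear scale, in which probes without signal lay near 86.1. A probe was counted as above background where its intensity exceeded 94.0, the limit that 5% of background values pass. Log2 values were taken after background correction and an offset of 16, so that differences of dim probes are understated. With that limit passed on at least 3 of the 6 arrays, 13 of the 20 member probes and 8 of the 10 genes were tested along with 24893 probes and 12864 genes in all. The 3 Plagl1 probes were among the 7 probes that did not pass. No gene of the whole array was called between PyMT/ETP and PyMT control tumours at an adjusted p of 0.05 in limma, so the share called was 0% of genes, and 0 of the 8 measured members were among them. At an unadjusted p of 0.05 there were 555 genes, where 643 would be met by chance. The number of arrays limits the precision: the half-width of a gene's 95% confidence interval had a median of 0.39 log2 units. With 3 tumours against 3, an exact two-sided permutation test of a single value cannot go below 0.1.

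Epithelial markers were in place in every tumour. Of 10 luminal markers, 9 passed the filter, all but Ehf, and 3 of the 9 differences by group means were positive. Their summed corrected intensity was 27583, 28543 and 32358 in PyMT/ETP replicates 1, 2 and 3. In PyMT control replicates 1, 2 and 3 it was 31571, 35043 and 30954, so PyMT/ETP replicates 1 and 2 lay below all controls. Basal and myoepithelial markers, of which 6 of 8 were tested, summed to 8867, 10858 and 6343 in PyMT/ETP tumours, against 9528, 12799 and 15292 in PyMT control tumours. Skin keratinocyte and hair genes set 2 of the control arrays apart, with sums from 511 to 554 in PyMT/ETP tumours, against 683, 1401 and 3191 in PyMT control replicates 1, 2 and 3. In such bulk samples, fewer cells of a type and less RNA per cell cannot be told apart.

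Mest, a hydrolase-fold protein of the endoplasmic reticulum, was higher by group means in PyMT/ETP tumours at all 3 of its probes. At the brightest probe it read 496, 382 and 178 in PyMT/ETP replicates 1, 2 and 3, against 171, 148 and 152 in PyMT control replicates 1, 2 and 3. PyMT/ETP replicates 1 and 2 stood far above every control tumour, while replicate 3 lay just above the highest control. The mean was 352 ± 161 in PyMT/ETP and 157 ± 12.5 in PyMT control tumours (SD, n = 3 each), a log2 difference of 1.50 (SE 0.42), or 2.82-fold.

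The other Mest probes gave the same division of the tumours. The second probe read 322, 279 and 125 in PyMT/ETP tumours, against 137, 117 and 117 in PyMT control tumours, and here replicate 3 of the PyMT/ETP group lay below control replicate 1. The log2 difference was 1.43 (SE 0.49). The dimmest probe read 155, 192 and 103 in PyMT/ETP tumours, against 97.5, 93.6 and 103 in PyMT control tumours, which put the controls at the edge of background and left replicate 3 of PyMT/ETP barely above the highest of them. Its log2 difference was 1.33 (SE 0.40). PyMT/ETP replicate 1 was the highest tumour at the first pair of probes and replicate 2 at the dimmest.

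**Figure D1:**
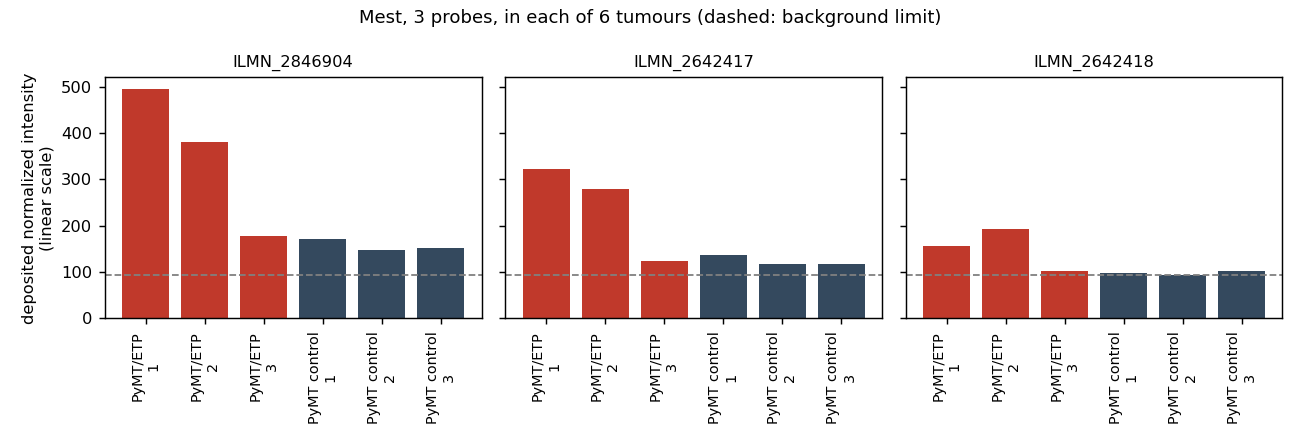
Deposited normalized intensity (linear scale) of the 3 Mest probes, one panel each, in 3 PyMT/ETP tumours (red, left) and 3 PyMT control tumours (dark, right), with each bar a single array and the background limit of 94.0 dashed. At the brightest probe PyMT/ETP replicates 1 and 2 read 496 and 382, while replicate 3 read 178 and the controls 148 to 171.

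Among all 12864 genes, 1 gene, Csrp1, had a larger positive difference than Mest. This place among the genes depended on single arrays: counted from the largest positive difference, Mest was 9th without PyMT/ETP replicate 1, 4th without PyMT/ETP replicate 2 or without PyMT control replicate 1, 3rd without PyMT/ETP replicate 3, and 1st without PyMT control replicate 3. By group means, 9 genes, or 0.07%, were at least 2-fold higher in PyMT/ETP tumours, and Mest was the only member among them. All 3 PyMT/ETP tumours lay above all 3 control tumours for 1 of the 8 measured members, Mest, beside 4.52% of all genes. Of the 13 member probes tested, 2 did so, both of Mest, beside 4.95% of all probes. For 0 of the 8 members did all PyMT/ETP tumours lie below the controls, beside 3.65% of all genes. These shares use the contrast that chose the set, so nothing is read from them.

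The spread within PyMT/ETP tumours was wide for Mest. Its SD was 1.04 log2 units there, a size met by 0.396% of genes, and 0.20 in PyMT control tumours, a size met by 48.0% of genes. Leaving out PyMT/ETP replicate 3 gave a log2 difference of 2.08 and leaving out replicate 1 gave 1.09, and Mest stayed higher in PyMT/ETP with any single array left out.

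Igf2, the fetal insulin-like growth factor, was high in a single tumour. It read 117, 314 and 117 in PyMT/ETP replicates 1, 2 and 3, against 140, 142 and 138 in PyMT control tumours. Replicate 2 of PyMT/ETP was the highest of the 6, and the other PyMT/ETP tumours lay below all controls. The log2 difference was 0.22 (SE 0.54), and without PyMT/ETP replicate 2 it was -0.58. The SD of Igf2 was 1.38 log2 units in PyMT/ETP tumours, a size met by 0.124% of genes, and 0.05 in PyMT control tumours, where 95.9% of genes varied as much or more. The tumour with the highest Mest at its brightest probe, PyMT/ETP replicate 1, was thus low in Igf2. PyMT/ETP replicate 2, the tumour high in Igf2, came next in Mest at that probe, at 382.

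Ndn, which encodes necdin, a paternally expressed suppressor of cell growth, followed Mest in which tumours were high, at a smaller scale. It read 235, 216 and 160 in PyMT/ETP tumours, against 187, 179 and 186 in PyMT control tumours. PyMT/ETP replicates 1 and 2 lay above all controls and replicate 3 below all of them, so that the groups overlapped. The log2 difference was 0.18 (SE 0.22), 0.45 without PyMT/ETP replicate 3 and 0.0063 without replicate 1. The 3 control tumours were close together, with an SD of 0.05 log2 units.

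Peg3, a zinc finger protein, had 4 probes, of which 2 were tested. The brightest read 360, 307 and 258 in PyMT/ETP tumours, against 275, 339 and 427 in PyMT control tumours, with a log2 difference of -0.20 (SE 0.24). The groups overlapped widely, and the next probe differed in sign, at 0.08 (SE 0.28). Without PyMT control replicates 2 and 3, the arrays high in skin keratin genes, the brightest probe gave 0.19.

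Dlk1, the EGF-repeat protein that holds back adipocyte differentiation, read 107, 143 and 156 in PyMT/ETP tumours, against 111, 141 and 129 in PyMT control tumours. Both groups held a low tumour, their replicate 1, and the log2 difference was 0.15 (SE 0.32). Its other probe was above background on 2 of 6 arrays and was not tested. Peg10, a gene derived from a retrotransposon and needed in the placenta, was at the edge of background. Its brighter probe read 85.6, 99.4 and 104 in PyMT/ETP tumours, against 94.1, 84.4 and 105 in PyMT control tumours, and passed the limit on 4 of 6 arrays. Plagl1, a zinc finger factor that regulates other imprinted genes, had 3 probes between 79.8 and 101 over all arrays, none above background on more than 2 of them.

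Both measured maternally expressed members had small negative differences at their brightest probe, within their standard errors. Cdkn1c, the cyclin-dependent kinase inhibitor p57, read 514, 831 and 398 in PyMT/ETP tumours, against 632, 404 and 673 in PyMT control tumours. Each group held both high and low tumours, and the log2 difference was -0.01 (SE 0.32). Grb10, an adaptor that restrains insulin and IGF receptor signalling, read 391, 372 and 653 at its brightest probe in PyMT/ETP tumours, against 481, 528 and 442 in PyMT control tumours. PyMT/ETP replicates 1 and 2, the tumours high in Mest, lay below all controls and replicate 3 above all of them, with a log2 difference of -0.10 (SE 0.25). A dimmer Grb10 probe gave 0.28 (SE 0.22), so the probes differed in sign.

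**Figure D2:**
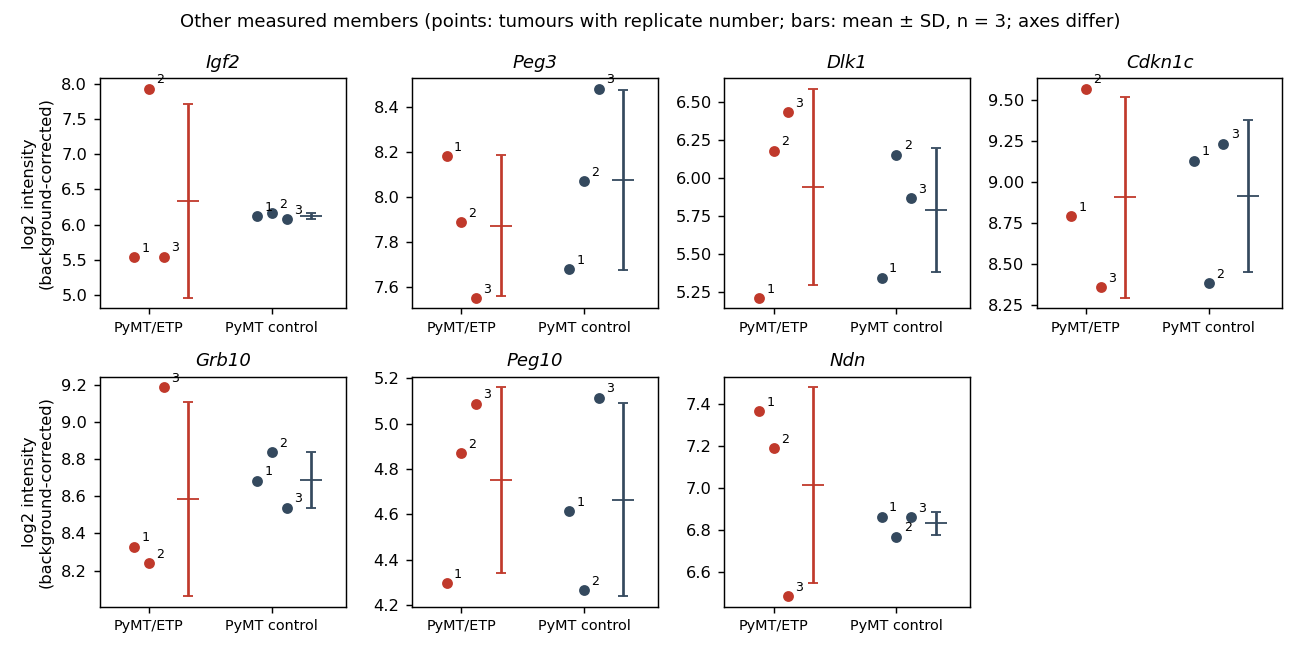
Background-corrected log2 intensity of the 7 other measured members at their brightest tested probe, with PyMT/ETP tumours (red) left of PyMT control tumours (dark), points numbered by replicate and bars giving mean ± SD (n = 3). The groups overlap in every panel, and Igf2 and Ndn are tightly grouped in controls, with an SD of 0.05 log2 units, and spread out in PyMT/ETP, with SDs of 1.38 and 0.47.

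Over the 8 measured members, 5 differences were positive and 3 negative, with a median of 0.12 log2 units. Over all genes tested 6531 were positive and 6333 negative, with a median of 0.0041. The within-group SD was larger in PyMT/ETP than in PyMT control tumours for 6 of the 8 members, Mest, Igf2, Dlk1, Cdkn1c, Grb10 and Ndn, and for 46.4% of all genes. The members nonetheless differed in which PyMT/ETP tumour was highest. Mest and Ndn were highest in replicate 1, Igf2 and Cdkn1c in replicate 2, and Dlk1 and Grb10 in replicate 3.

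**Figure D3:**
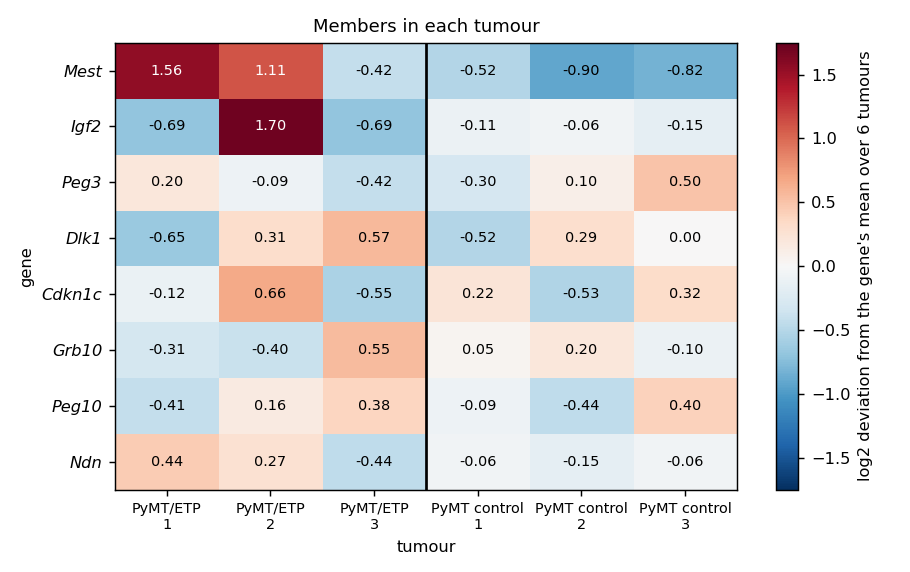
Log2 deviation of each measured member from its own mean over the 6 tumours, with PyMT/ETP tumours in the left columns, PyMT control tumours in the right columns, red above and blue below the mean. The largest deviations are those of Igf2 in PyMT/ETP replicate 2 (1.70) and of Mest in PyMT/ETP replicates 1 (1.56) and 2 (1.11).

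Cell markers moved with some of these tumours. PyMT/ETP replicate 1 had the highest summed level of skeletal muscle genes, at 1550, where PyMT/ETP replicates 2 and 3 had 593 and 650 and PyMT control tumours 613 to 725. Acta1 and Myl1, at 824 and 560, were the brightest muscle genes of PyMT/ETP replicate 1. All muscle genes tested but Myh4, Actn3 and Pvalb were highest in that tumour, and Actn3 was lowest there. Of the 9 muscle genes tested, 7 had a positive difference by group means, and Ckm did not pass the limit. The same tumour had the highest sum of fibroblast genes, with 4649, 2941 and 2337 in the PyMT/ETP group, beside 2634 to 3443 in PyMT control tumours, and 8 of 10 differences were positive. Macrophage genes summed to 6003, 4885 and 4146 in PyMT/ETP tumours and to 4133 to 4470 in PyMT control tumours, and 7 of 7 differences were positive (Cd68 was not tested).

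The sum of adipocyte genes ran in the order of Mest, at its brightest probe, in the PyMT/ETP tumours but not in the control tumours. It was 604, 472 and 213 in PyMT/ETP replicates 1, 2 and 3, against 220, 868 and 562 in PyMT control replicates 1, 2 and 3. This was not particular to adipocyte genes, since the fibroblast, macrophage and skin sums did the same. Within the PyMT/ETP group, Adipoq, Lep and Plin4 ran in that order, while Cidec and Lipe, which were dim, were highest in replicate 2. PyMT control replicate 2, the highest of the 6 in adipocyte genes, was the lowest in Mest at its brightest probe. The controls spanned only 148 to 171 at that probe. Of 9 adipocyte genes 5 were tested, 0 of them with a positive difference, and Plin1, Fabp4, Cfd and Retn were not. The part of these cell types in the Mest values was not tested.

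The genes most like Mest were found by the mean absolute difference of centred log2 values over the 6 tumours, among 9858 genes above the stricter limit of 97.3 on all arrays. The nearest was Hoxa5, a homeobox gene of positional identity, at 0.16 log2 units, against a median distance of 0.88 over the genes compared. It read 279, 222 and 116 in PyMT/ETP tumours, against 130, 107 and 120 in PyMT control tumours. As for Mest, replicates 1 and 2 of PyMT/ETP were above all controls. Replicate 3 lay among the controls for Hoxa5 and just above the highest of them for Mest.

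Hoxa7, also of the Hoxa cluster, followed at 0.24, with 217, 164 and 117 in PyMT/ETP tumours and 112, 99.3 and 117 in PyMT control tumours. The cartilage collagen gene Col2a1 came next at 0.31, with 256, 213 and 136 in PyMT/ETP tumours and 145, 104 and 129 in PyMT control tumours. Fgg, the fibrinogen gamma chain, lay at 0.34, and Rab27a, a GTPase of secretory vesicles, at 0.39. All of them were highest in PyMT/ETP replicate 1 and next in replicate 2, and lowest in PyMT control replicate 2. Likeness to Mest brings a large group difference by construction, so this is a description of 6 arrays.

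**Figure D4:**
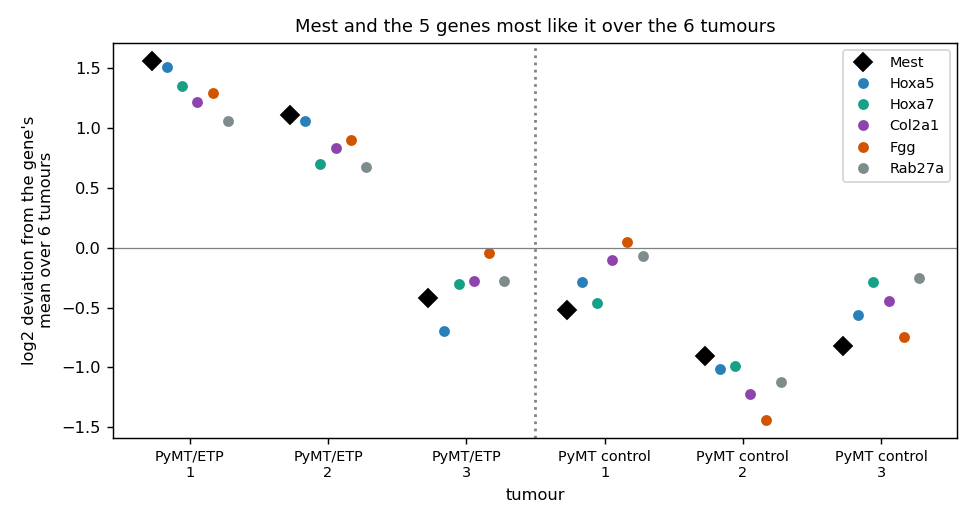
Log2 deviation from each gene's mean over the 6 tumours for Mest (black diamonds) and the 5 genes most like it (coloured circles), with PyMT/ETP tumours left of the dotted line and PyMT control tumours right of it. Mest and Hoxa5 stand at 1.56 and 1.51 in PyMT/ETP replicate 1 and at 1.11 and 1.05 in replicate 2, and every control tumour is at or below 0.05.

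Neighbouring genes on chromosome 6 showed smaller differences than Mest. By the RefSeq order (GRCm38.p6), the nearest tested genes were Cep41 and Tmem209 on the lower side, with log2 differences of 0.26 and 0.16. On the higher side, Copg2, a gene of the imprinted Mest domain, had 0.23 and Mkln1 0.05. The groups overlapped for all 4 of them. Around Igf2 and H19 on chromosome 7, the differences were -0.06 for Mrpl23, 0.14 for Tnnt3, -0.19 for Tspan32 and 0.04 for Cd81, also with overlap. Near other members some neighbours had groups without overlap, as did 8.17% of all genes. All PyMT/ETP tumours lay above the controls for Pex3 near Plagl1 (0.30). They lay below for Stx11 near Plagl1 (-0.46), Dio3os near Dlk1 (-0.42) and Mkrn3 near Ndn (-0.28).

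Among 71 other genes reported as imprinted in the mouse, 38 were tested and 0 passed in either direction in limma, 0 of them also at an unadjusted p of 0.05. Of the 38, 21 differences were positive and 17 negative, with a median of 0.02 log2 units and a range from -0.43 to 0.81. The 4 genes of smallest unadjusted p each had an adjusted p of 0.997 in limma.

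Rasgrf1, a paternally expressed activator of Ras, read 178, 156 and 115 in PyMT/ETP tumours, against 131, 98.4 and 116 in PyMT control tumours. Its log2 difference was 0.81 (SE 0.36), and its 3 other tested probes gave 0.70, 0.52 and 0.37. PyMT/ETP replicate 3 lay among the controls. Kcnq1ot1, the noncoding RNA that silences the Cdkn1c domain on the paternal chromosome, read 208, 173 and 160 in PyMT/ETP tumours, against 170, 120 and 147 in PyMT control tumours (log2 difference 0.57, SE 0.27). Mkrn3, which shares its imprinted domain with Ndn, had a log2 difference of -0.28 (SE 0.14), and Tssc4 one of -0.43 (SE 0.21). Mkrn3 was near the background limit of 94.0, with 99.3, 104 and 105 in PyMT/ETP tumours, against 111, 110 and 108 in PyMT control tumours. Of the 38 genes, only Mkrn3 had groups without overlap, or 2.63%, beside 8.17% of all genes in either direction. Igf2r, the receptor that clears Igf2, read 736, 630 and 1014 in PyMT/ETP tumours, against 676, 561 and 742 in PyMT control tumours, with a difference of 0.27 that did not pass (adjusted p = 0.997 in limma).

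Of 18 genes of the IGF2 pathway, Igf2r again among them, 16 were tested and 0 passed, 0 of them also at an unadjusted p of 0.05 in limma. Their differences were 8 positive and 8 negative, with a median of 0.0029 log2 units and a range from -0.33 to 0.27. The 4 of smallest unadjusted p were Irs1, an adaptor of the insulin and IGF receptors (0.27, SE 0.15), Igf2bp3, an RNA-binding protein of Igf2 mRNA (-0.33, SE 0.25), Igfals (-0.30, SE 0.23) and the binding protein Igfbp3 (-0.29, SE 0.23). Each had an adjusted p of 0.997 in limma. Of the 16 genes, only Irs1 had groups without overlap, or 6.25%, beside 8.17% of all genes in either direction. The other tested probes of Igf2bp3 and Igfbp3 gave 0.10 and 0.02. The receptor Igf1r read 203, 176 and 260 in PyMT/ETP tumours, against 189, 200 and 192 in PyMT control tumours, and here, as for Grb10 and Igf2r, PyMT/ETP replicate 3 was the highest tumour.

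**Figure D5:**
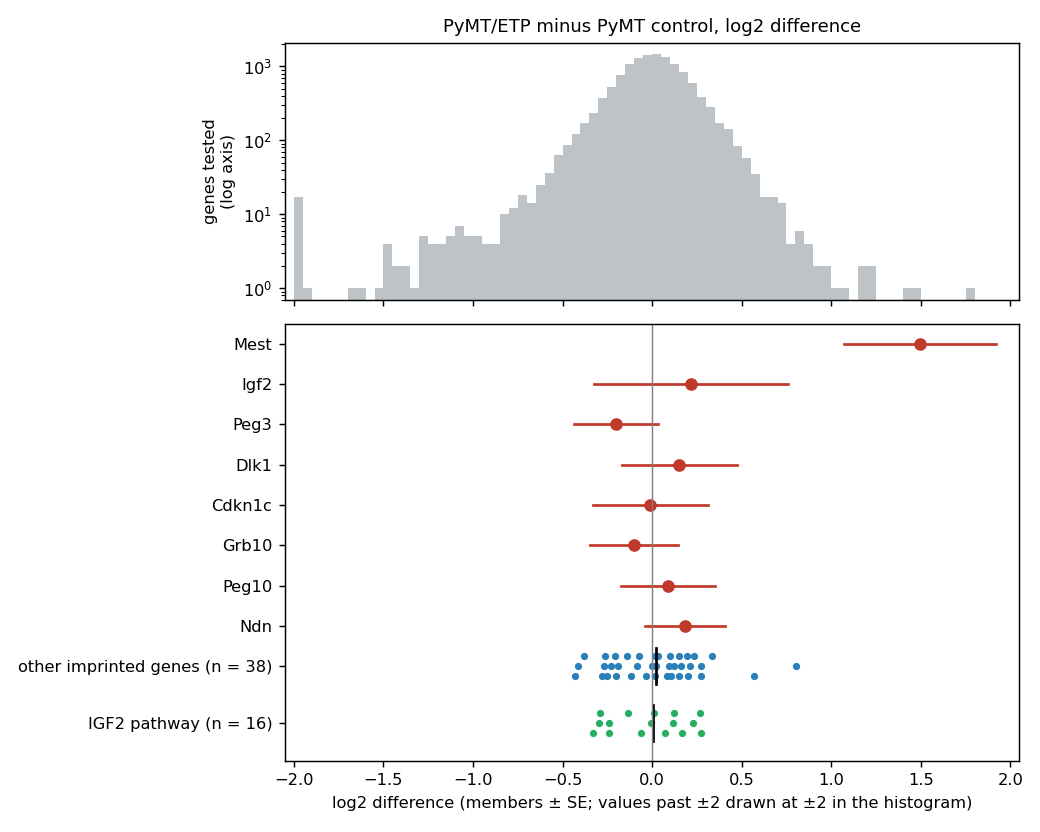
Log2 difference, PyMT/ETP minus PyMT control, for all 12864 genes tested (histogram, log count axis), for the 8 measured members (red points with SE), and for 38 other imprinted genes and 16 IGF2 pathway genes (dots, with the median as a black bar). Mest lies at 1.50, the other members between -0.20 and 0.22, and the medians of both lists near 0.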

How the data were processed

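RNA of 6 tumours was extracted with Trizol, cleaned on columns, made into biotinylated cRNA and hybridised to Illumina arrays, per the labels' protocols. The authors deposited 1 normalized intensity value per probe and array. Which software, background treatment and normalization they used is not given here in any label or header. Sorted values differed by at most 0.19 between arrays, so the deposited intensity values had been equalized. A second table with 24 value columns was not used, since no label pairs its columns with samples, and detection p-values planned at first were therefore replaced by a background level, at a mode of 86.1 and SD of 4.83, estimated from the low values.

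For the log2 scale, limma's normexp signal estimate was taken with that mode and SD, and 16 was added. Probe symbols came from the platform annotation, updated through RefSeq gene IDs: 34885 probes had 1 symbol, 18 several and 10378 none. Each gene was represented by its brightest tested probe. Standard errors of the members are from the fit over probes, and those of the other listed genes from the fit over genes. The comparison used the two-sided moderated test of limma 3.58.1 (R 4.3.3; functions lmFit, then eBayes) over all tested features, with Benjamini-Hochberg adjustment. The fit was run on simulated data with independent normal noise. That noise had the same spread in both groups, unlike the values of Mest and Igf2, so nothing about these genes is read from it. Members, lists and tests were chosen with earlier results of these data known. The rule for names took all members, the 4 genes of smallest p in each of the other imprinted and IGF2 pathway lists, and the 5 genes most like Mest. Copg2, Igf2r, Igf1r, Csrp1 and the genes near the members are named outside it.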

Additional observations from a re-analysis of the deposited data

How the results depend on the processing

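Mest was higher in PyMT/ETP tumours under all 16 alternatives, with log2 differences from 1.04 without background correction to 2.08 without PyMT/ETP replicate 3, and it was not called under any of them. With 1 array left out the count of genes past an adjusted p of 0.05 ran from 0 to 16 and that of probes from 0 to 18, the highest without PyMT control replicate 1, where 0 of the called genes were members. With PyMT control replicates 2 and 3 both left out, a choice made after seeing the data, 1 gene and 1 probe passed, and replicate 1 is then a lone control assumed to vary like the PyMT/ETP tumours. There the median of the other imprinted list was -0.10 and that of the IGF2 pathway list 0.15. With 1 array left out, the median of the other imprinted list ran from -0.056 to 0.054. The differences of Cdkn1c, Dlk1, Grb10, Igf2, Peg10 and Peg3 took the other sign under 5, 2, 3, 1, 2 and 1 alternatives, and the cause was not tested. With the replicate block 0 genes passed and 498 had an unadjusted p under 0.05. No label used here pairs samples of equal number. Their deviations correlated at -0.065, -0.059 and -0.11, and those of unequal number at -0.012 to 0.070. Whether samples of equal number shared a batch cannot be told from these values. Signal over background limits Peg10, Plagl1 and the dimmest Mest probe.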

Other observations

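Igf2 was among the few genes high in a single PyMT/ETP tumour. This was looked for after its values were seen. Only 2 genes, Igf2 and Them5, a mitochondrial acyl-CoA thioesterase, lay at least 1 log2 unit higher in PyMT/ETP replicate 2 than in every other tumour. Them5 read 127, 481 and 117 in PyMT/ETP tumours, against 166, 202 and 197 in PyMT control tumours. The same count was 11 for PyMT/ETP replicate 1 and 20 for PyMT/ETP replicate 3, and 4, 12 and 57 for PyMT control replicates 1, 2 and 3.

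Of the 9 genes at least 2-fold higher in PyMT/ETP by group means, 5 were Mest and genes named as most like it, Hoxa5, Hoxa7, Col2a1 and Fgg. Likeness to Mest brings a large group difference by construction, so nothing is read from this overlap. The rest of the 9, named after their values were seen, were Csrp1, Amtn, Slc47a1 and Pcdhb22. Csrp1, a LIM protein of smooth muscle, read 1665, 936 and 314 in PyMT/ETP tumours, against 692, 193 and 179 in PyMT control tumours. Pcdhb22, a clustered protocadherin, read 141, 157 and 165 in PyMT/ETP tumours, against 130, 111 and 99.7 in PyMT control tumours, and was the only one of the 9 that was highest in PyMT/ETP replicate 3.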
